A study of Mus musculus with 8 samples.

Results

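Eea1, Rab5a, Rab5c, Rab7, Cd68, Lamp1, Lamp2, Ctsd, Ctsb and Tfeb are 10 of the 24222 gene symbols counted in haematopoietic stem cells of mice with and without the histone demethylases Kdm4a, Kdm4b and Kdm4c. They stand for the route from the early endosome to the lysosome. They were chosen on the comparison reported here, because Eea1 RNA was lower and Cd68 RNA higher in the knockout. The difference between genotypes in these 10 genes is therefore given as a description with no test. All 10 were among the 11498 genes with enough reads for testing.

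The cells were sorted by flow cytometry from bone marrow of C57BL6 mice, 4 labelled WT control and 4 with a triple knockout of Kdm4a, b and c (KO), taken 2 weeks after induction. There was 1 RNA-seq library per mouse, made from amplified cDNA. The sources used here do not give age, sort markers, the inducing agent or whether WT mice received it. Levels are CPM, read counts scaled to a common library total, and errors are SD over 4 mice.

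Libraries held 3594315 to 6044289 counts in WT and 5541504 to 14872493 in KO. The targeted genes had no overlap between genotypes. Kdm4c averaged 115 ± 22.7 CPM in WT against 36.0 ± 10.6 CPM in KO (n = 4 each, edgeR adjusted p = 2.05e-05), while Kdm4a and Kdm4b, with log2 fold changes of -0.87 and -1.40, missed the threshold (edgeR adjusted p = 0.132 and 0.142). All 18 stem cell markers listed for this work were measured, among them Kit at 748 to 1171 CPM and Hlf at 1109 to 1603 CPM. The summed level of the 18 was 5495 to 5971 CPM in WT against 4685 to 5176 CPM in KO, and 0 of the 18 passed edgeR's test. Unadjusted p-values by edgeR were below 0.05 for 2 higher and 7 lower markers of the 18, against 11.2% of all genes tested. DESeq2 called 3 of the 18 and limma voom 1. Ly6a was at 47.9 ± 14.1 and 81 ± 6.52 CPM and Vwf at 197 ± 35 and 282 ± 30.2 CPM in WT and KO (edgeR adjusted p = 0.0967 and 0.0699). Mecom went the other way, at 336 ± 27 and 251 ± 23.9 CPM (edgeR adjusted p = 0.106). So did Kit, Mllt3, Hoxb5 and Pdzk1ip1, with log2 fold changes of -0.30, -0.35, -0.39 and -0.55 (edgeR adjusted p = 0.219, 0.163, 0.675 and 0.375). Neither these genes nor Ly6a, Vwf and Mecom overlapped between genotypes. Of all genes tested, 5.81% did not overlap.

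Material taken up by a cell first reaches the early endosome, where the GTPase RAB5 and the tether EEA1, which binds RAB5 and a phosphoinositide of the endosome membrane, bring vesicles together for fusion. RAB5 is then exchanged for RAB7, and the late endosome fuses with the lysosome. LAMP1, LAMP2 and CD68 are glycoproteins of the late endosome and lysosome membrane, and cathepsins D and B are proteases of its interior. TFEB is a transcription factor that turns on lysosomal genes through E-box sites near their starts. Lysosomes have been linked to the quiescence of blood stem cells.

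Promoter sequences were looked up for the 10 genes because the E-box that TFEB binds is a property the choice of genes did not use. RefSeq windows on GRCm38.p6, spanning 250 bases before to 50 bases after a start, matched 9 of the 10, all but Ctsb. The motif CACGTG, which reads the same on both strands, was present in 3 of the 9, Rab5a, Lamp1 and Ctsd. It was present in 12.1% of the 8796 tested genes with a window and in 8.09% of all 27025 genes with one. The longer form TCACGTGA, which contains it, was in Rab5a and Ctsd, against 2.27% of tested genes. The stretches below run 5′ to 3′ on the gene's strand, with CACGTG in capitals. They lie at chr17:53479127-53479156 (plus strand) for Rab5a, chr7:142387908-142387937 (minus strand) for Ctsd and chr8:13159091-13159160 (plus strand) for Lamp1.
Rab5a: acccggggatgtCACGTGacttcggccccg
Ctsd: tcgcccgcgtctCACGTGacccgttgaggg
Lamp1: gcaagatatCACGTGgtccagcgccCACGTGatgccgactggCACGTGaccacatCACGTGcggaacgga

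Lamp1 held 4 copies within the 70 bases before its start. In Rab5a and Ctsd the copy shown began 95 and 98 bases before the RefSeq start, and each had a second copy farther upstream. In the GENCODE model of Ctsd the gene begins farther upstream, at 142388038. The Ctsd stretch shown therefore lies inside the gene in that model. A match is a description of the letters and does not show binding.

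The windows of Eea1 and Cd68, the genes for which the list was drawn up, held neither motif and differed in base composition. Eea1 had 27 CpG dinucleotides in 300.0 bases, more than 68.5% of tested genes, and Cd68 had 4, more than 5.13% of them. The other 7 windows, taking the first listed for Rab7 and Tfeb, had 10 to 33. The stretches from 120 to 21 bases before each start are shown with CpG in capitals, at chr10:95940543-95940642 (plus strand) for Eea1 and chr11:69666191-69666290 (minus strand) for Cd68.
Eea1: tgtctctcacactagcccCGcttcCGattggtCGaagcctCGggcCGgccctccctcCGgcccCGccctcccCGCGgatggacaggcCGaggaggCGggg
Cd68: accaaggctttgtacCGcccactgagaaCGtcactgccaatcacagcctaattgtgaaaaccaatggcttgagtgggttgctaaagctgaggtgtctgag

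Eea1 (ENSMUSG00000036499.9, chromosome 10, 95940650 to 96045518, plus strand, mm10) encodes the early endosome tether. Its level was 192, 234, 244 and 246 CPM in WT mice 1 to 4 and 131, 131, 119 and 125 CPM in KO mice 1 to 4. Every KO library lay below every WT library, and the KO mice were close together, with a coefficient of variation of 4.63% against 10.9% in WT. The mean was 229 ± 25 CPM in WT against 126 ± 5.86 CPM in KO (n = 4 each). The log2 fold change was -0.86 (SE 0.130), or 1.81-fold lower. Counts behind these levels were 671 to 1779 per library. No other annotated gene shared its exons.

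Rab5a and Rab5c encode closely related forms of the GTPase that recruits EEA1. Unlike those of Eea1, their WT and KO libraries overlapped. Rab5a lies on chromosome 17, 53479234 to 53507680 (plus strand). Its WT libraries held 19.2, 38, 11.4 and 13.9 CPM and its KO libraries 12.6, 13.3, 15.8 and 10.6 CPM. WT mouse 2, the library with the fewest reads, was the highest, and the groups overlapped. The log2 fold change was -0.50 (SE 0.332), and -0.14 without WT mouse 2. Rab5c (chromosome 11, 100715009 to 100738215, minus strand) was at 73.2, 83.9, 93.4 and 99.2 CPM in WT against 114, 95.3, 105 and 95.1 CPM in KO, overlapping groups with a log2 fold change of 0.23 (SE 0.156). No stretch of 50 bases in the longest transcript of either gene occurred in a transcript of another annotated gene. Reads of that length from these transcripts of the 2 forms were therefore distinguishable. Over all its exons, Rab5a shares 4.19% of bases with Pp2d1 on the opposite strand, which had 13 to 110 counts per library.

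Rab7 (chromosome 6, 87999106 to 88045270, minus strand) encodes the GTPase that marks late endosomes. It was at 429, 305, 308 and 348 CPM in WT mice 1 to 4 and 480, 447, 477 and 432 CPM in KO mice 1 to 4. The groups did not overlap, but WT mouse 1 at 429 CPM came close to the lowest KO mouse at 432 CPM. The means were 348 ± 57.8 and 459 ± 23.3 CPM (n = 4 each), a log2 fold change of 0.40 (SE 0.118), and 0.34 to 0.52 with any 1 library left out. Of the 50-base stretches of its longest transcript, 16.2% also occur in the antisense gene Gm5577 or the pseudogene Rab7-ps1, so part of its reads could have been assigned elsewhere or dropped. Gm5577 had 7 to 33 counts per library, and Rab7-ps1 was not among the counted symbols.

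**Figure D1:**
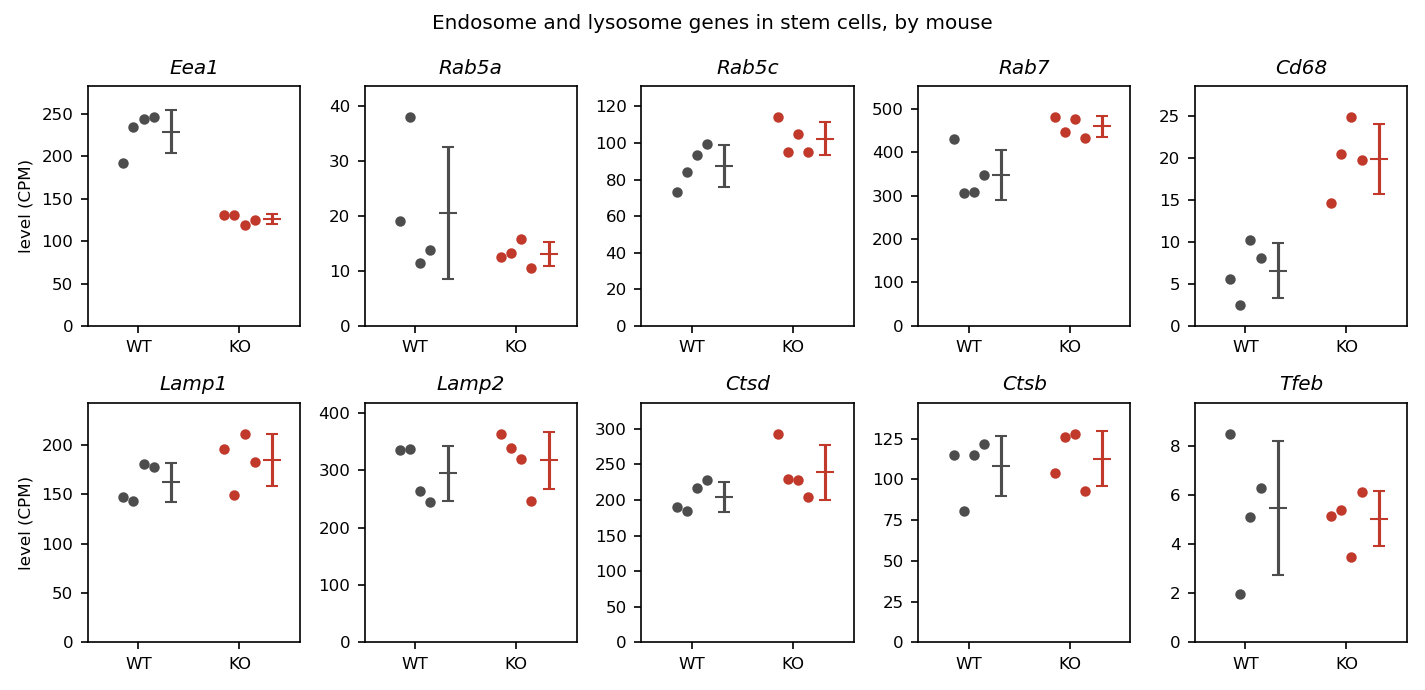
Level in CPM (vertical axis, from 0) of each of the 10 genes in 4 WT (grey) and 4 KO (red) libraries, 1 point per mouse, with the mean and SD beside the points. The KO points of Eea1 (119 to 131 CPM) lie below all WT points, those of Cd68 (14.6 to 24.8 CPM) and Rab7 (432 to 480 CPM) above all WT points, and the other 7 genes overlap.

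The lysosomal membrane genes Lamp1 and Lamp2 overlapped between genotypes. WT libraries held 147, 143, 180 and 177 CPM of Lamp1 (chromosome 8, 13159161 to 13175338, plus strand) and KO libraries 196, 149, 211 and 182 CPM, for a log2 fold change of 0.19 (SE 0.140). Exons of Lamp1 share 9.31% of their bases with Grtp1 on the opposite strand, which had 23 to 74 counts per library. Lamp2 (chromosome X, 38401357 to 38456454, minus strand), whose product also takes part in the fusion of autophagosomes with lysosomes, was at 335, 337, 264 and 245 CPM in WT against 364, 339, 320 and 247 CPM in KO. Its log2 fold change was 0.11 (SE 0.134). The means were 162 ± 19.1 and 184 ± 26.7 CPM for Lamp1 and 295 ± 47.7 and 317 ± 50.2 CPM for Lamp2 (n = 4 each), so the difference was close to 1 SD for Lamp1 and well inside it for Lamp2.

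The protease genes also overlapped. Ctsd (chromosome 7, 142375911 to 142388038, minus strand), which encodes the aspartic protease cathepsin D, was at 190, 184, 217 and 228 CPM in WT against 293, 230, 228 and 204 CPM in KO. KO mouse 1 was the highest library, and without it the log2 fold change of 0.22 (SE 0.133) was 0.11. Ctsb (chromosome 14, 63122462 to 63145923, plus strand), the gene of the cysteine protease cathepsin B, was at 115, 80.8, 115 and 122 CPM in WT against 104, 126, 128 and 93.2 CPM in KO. Its log2 fold change of 0.058 (SE 0.159) was the smallest of the 10 in size and turned negative, at -0.044, without WT mouse 2. Exons of Ctsd share 34.4% of their bases with the read-through gene Gm49369 on the same strand, which was not among the counted symbols. Those of Ctsb share 12.8% with Fdft1 on the opposite strand, which had 95 to 716 counts per library.

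Tfeb (chromosome 17, 47737030 to 47792419, plus strand) had the fewest reads of the 10 genes, 7 to 52 per library. It was at 8.49, 1.96, 5.09 and 6.29 CPM in WT against 5.15, 5.38, 3.48 and 6.13 CPM in KO. The KO libraries lay within the WT range, and the log2 fold change was -0.32 (SE 0.456). At this depth a difference within that error was not detectable.

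Cd68 (ENSMUSG00000018774.13, chromosome 11, 69664213 to 69666153, minus strand) encodes a heavily glycosylated protein of the LAMP family, best known as a marker of macrophages. It was at 5.55, 2.52, 10.2 and 8.07 CPM in WT mice 1 to 4 and 14.6, 20.4, 24.8 and 19.7 CPM in KO mice 1 to 4. All KO libraries were above all WT libraries. The means were 6.58 ± 3.31 and 19.9 ± 4.19 CPM (n = 4 each), with a log2 fold change of 1.57 (SE 0.356), or 2.97-fold higher. The counts were low, 9 to 52 per WT library and 102 to 371 per KO library, and WT varied by 50.2% (coefficient of variation). The log2 fold change was 1.38 to 1.82 with any 1 library left out.

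Markers of macrophages and monocytes were set beside Cd68, and their part in its difference was not tested. Of 20 symbols 7 had enough reads to test, of which 0 were higher and 1 lower. The lower gene was Mrc1, the mannose receptor, at 6.09 ± 3.96 CPM in WT against 0.989 ± 0.602 CPM in KO (n = 4 each, edgeR adjusted p = 0.0200). That call was lost in 6 of the 15 alternatives that tested the gene, limma voom and 5 with 1 library left out (WT mouse 1 or 4, or KO mouse 2, 3 or 4), with adjusted p from 0.00341 to 0.182 over edgeR, DESeq2 and limma. The summed level of the 20 was 255 to 324 CPM in WT against 310 to 327 CPM in KO, most of it from Lyz2 and Itgam, which myeloid-primed cells also express. Without these, the other 18 summed to 25.2 to 48.7 CPM in WT against 16.3 to 25.1 CPM in KO. Members of the list differed in how far they were detected. Cd163, a scavenger receptor gene, averaged 9.97 ± 3.82 CPM in WT and 9.21 ± 4.36 in KO. Vcam1, Mertk and Spic had counts in every library, at up to 9.36, 10.9 and 4.52 CPM. Their means were lower in KO, with log2 fold changes of -1.54, -1.54 and -1.89 (SE 0.449, 0.648 and 0.651). None of them was called (edgeR adjusted p = 0.135, 0.356 and 0.234). Vcam1 did not overlap between genotypes, whereas Mertk and Spic did. Lyz2 and Itgam went the other way, with log2 fold changes of 0.15 and 0.60. Emr1, which encodes F4/80, had no count in 6 of 8 libraries and at most 0.968 CPM, and Csf1r, Fcgr1 and C1qa reached at most 2.42, 0.484 and 0.173 CPM. Itgam, the integrin CD11b, was at 72.2 ± 14.5 CPM in WT against 111 ± 34.7 CPM in KO (adjusted p = 0.219 by edgeR). In bulk samples a change in the number of cells of a type and a change in RNA per cell cannot be told apart.

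Some markers of other lineages also differed between genotypes, and their part in the results on the 10 genes was not tested. The 5 megakaryocyte markers summed to 164 to 213 CPM in WT against 272 to 291 CPM in KO. Of these 2 were called higher, Itga2b (edgeR adjusted p = 0.00737) and Gp1ba (edgeR adjusted p = 0.00128). Pf4 went the other way, with a log2 fold change of -0.43 (edgeR adjusted p = 0.376). Gp9 and Ppbp had log2 fold changes of 0.27 and 0.50 (edgeR adjusted p = 0.815 and 0.6). Pf4, Gp9 and Ppbp each overlapped between genotypes. The 9 erythroid markers summed to 2193 to 2430 CPM in WT and 1250 to 1455 CPM in KO. Of these 1 was called lower, Car2 (a carbonic anhydrase), from 2286 ± 111 to 1306 ± 84.9 CPM (n = 4 each, edgeR adjusted p = 4.19e-06). Car2 made up most of both sums, and the other erythroid markers did not all move with it. Gata1 was at 17.4 ± 3.11 and 24 ± 4.79 CPM (edgeR adjusted p = 0.584). Car1 was at 8.11 ± 4.59 and 1.93 ± 1.3 CPM (edgeR adjusted p = 0.132). Klf1, Alas2 and Epor had log2 fold changes of -0.16, -0.066 and -0.55. The calls of Itga2b, Gp1ba and Car2 held in all 17 alternatives, with adjusted p of at most 0.0435, 0.0131 and 0.000108 over edgeR, DESeq2 and limma. Tested markers of dendritic cells, neutrophils and lymphocytes had edgeR adjusted p of 0.386 (Flt3) to 0.989 (Cd79b).

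**Figure D2:**
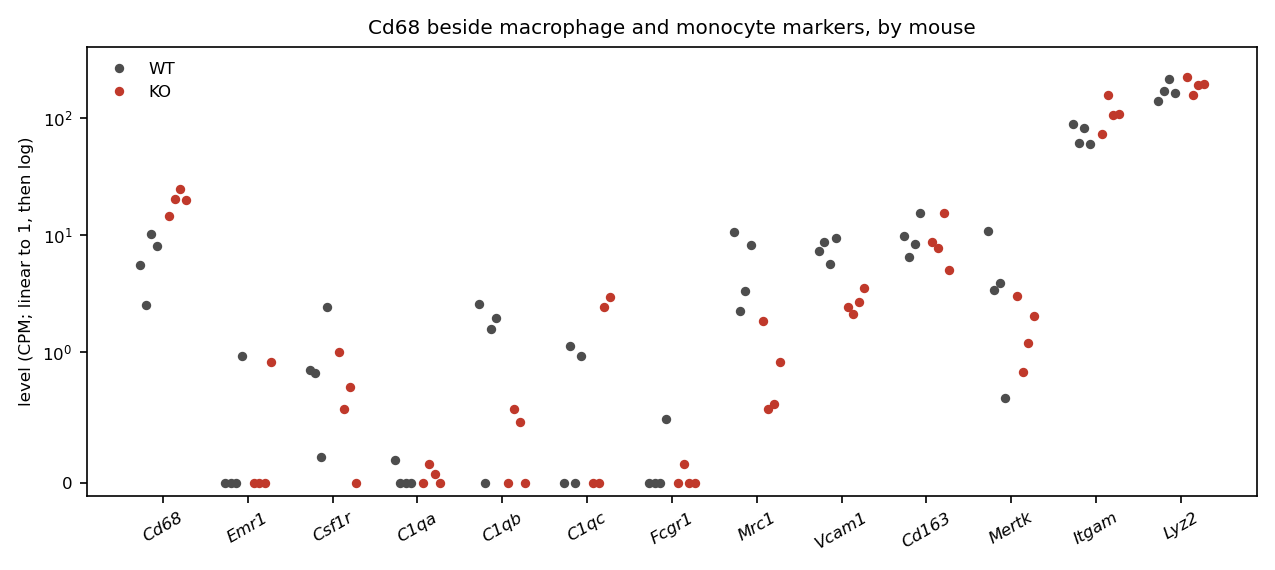
Level in CPM (vertical axis, linear up to 1 and logarithmic above) of Cd68 and 12 macrophage and monocyte markers in 4 WT (grey) and 4 KO (red) libraries, 1 point per mouse. Cd68 is higher in all KO mice, whereas Mrc1 and Vcam1 are lower in all KO mice and Emr1, C1qa and Fcgr1 stay below 1 CPM.

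Across the 10 genes, 7 had a fold above 1 and 3 below 1. The median log2 fold change was 0.15, against 0.0021 over all genes tested. By edgeR's test over all genes, 1 of the 10 was called higher (Cd68) and 1 lower (Eea1), where 0.583% of all genes were called, 0.252% higher and 0.330% lower. The call of Cd68 was lost in 8 of 17 alternatives, among them 7 of the 8 that leave out 1 library (all but KO mouse 1). WT and KO libraries did not overlap in 3 of the 10 (Eea1, Cd68 and Rab7) and in 5.81% of all genes tested. Because this contrast chose the genes, nothing is read from these counts. In the other 8 genes the log2 fold changes ran from -0.50 for Rab5a to 0.40 for Rab7.

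Levels of different genes were set side by side per length of exon. This assumes even coverage along transcripts, which was not checked. In WT the order was Rab7, Ctsd, Lamp1, Rab5c, Lamp2, Eea1, Ctsb, Cd68, Rab5a and Tfeb. Rab7 had a median of 126 CPM per kb (117 to 164), Ctsd 86.7 (78.3 to 96.8) and Lamp1 60.6 (53.5 to 67.1). These 3 came in the same order in all 8 libraries, and their WT ranges did not overlap. Rab5c at 40.4 (33.3 to 45.2), Lamp2 at 31.4 (25.6 to 35.3) and Eea1 at 24.9 (20 to 25.6) each overlapped with the next in WT. Eea1 was above Ctsb, at 19 CPM per kb (13.4 to 20.1), in all 4 WT mice and in no KO mouse, where its median was 13.3.

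At the low end, Cd68 had a WT median of 5.42 CPM per kb (2.00 to 8.10) and Rab5a 3.14 (2.16 to 7.22), which overlapped. In KO the median of Cd68 was 15.9 and that of Rab5a 2.46. Tfeb was lowest, at 1.00 (0.345 to 1.5). Between the 2 forms of RAB5, Rab5c exceeded Rab5a per kb by 5.30 to 19.8 times in WT and by 15.9 to 21.8 times in KO. With the longest transcript as the length, Lamp2 moved up to 83.1 CPM per kb, between Ctsd and Lamp1, since its union of exons (9552 bases) is much longer than its longest transcript (3604 bases). The other 9 genes stayed in the same order among themselves.

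**Figure D3:**
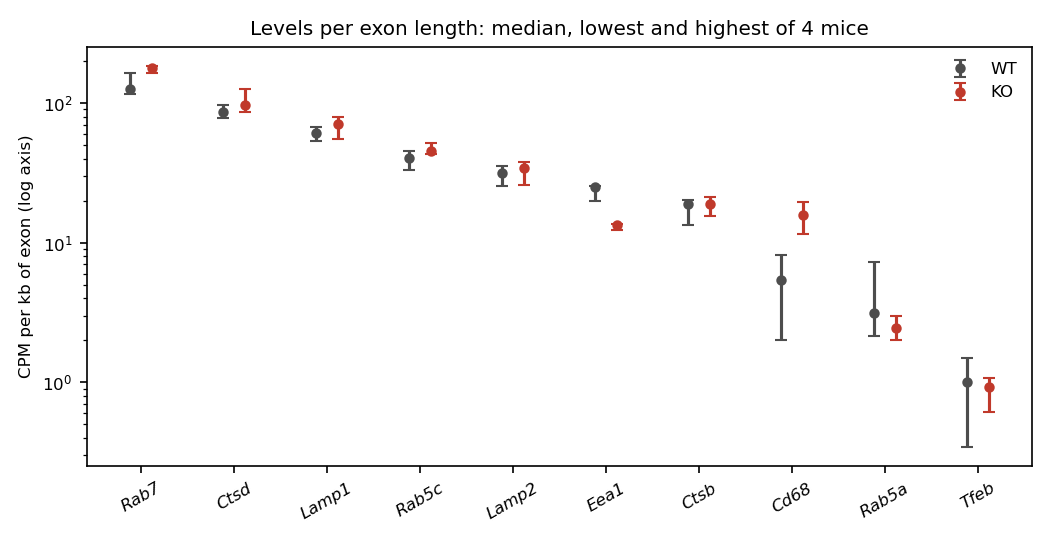
Level in CPM per kb of exon (vertical log axis) of the 10 genes, ordered by the WT median. Points are medians and bars run from the lowest to the highest of 4 mice, WT in grey and KO in red. The levels span 126 (Rab7) to 1.00 (Tfeb) in WT, and the WT and KO bars of Eea1, Cd68 and Rab7 do not overlap.

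Other genes of the same organelles were taken from 7 lists with 253 symbols, of which 231 were tested. With p adjusted over all genes, edgeR called 0 of the 231 higher and 0 lower. Unadjusted p-values were below 0.05 for 11 with a fold above 1 and 17 with a fold below 1, 12.1% of the 231 against 11.2% of all genes tested. From DESeq2 there were 0 higher and 1 lower calls, and none from limma voom. The median log2 fold change was -0.066, and 91 of the 231 had a fold above 1, against 5772 of all 11498. WT and KO libraries did not overlap in 12 of the 231, against 668 of all 11498. Below, up to 2 genes per list are named, from those with the smallest p.

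Early endosome genes, which act with RAB5 and EEA1 or on the phosphoinositide that EEA1 binds, gave 0 calls among 33, with a median log2 fold change of -0.13. Wdfy1, whose product binds that phosphoinositide, was at 112 ± 4.52 CPM in WT against 81.9 ± 9.73 CPM in KO (adjusted p = 0.209 by edgeR). The third form of the GTPase gene, Rab5b, had a log2 fold change of -0.027 (SE 0.270).

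Late endosome genes, including the CORVET and HOPS tethers and regulators of RAB7, gave 0 calls among 27, with a median of 0.059. Vps18, a core subunit of both tethers, was at 24.7 ± 5.71 and 13.6 ± 1.48 CPM (adjusted p = 0.191 by edgeR), without overlap between groups. Vps33b, which encodes a relative of a HOPS subunit, went the other way, at 52.0 ± 7.66 and 74.1 ± 4.29 CPM (adjusted p = 0.253 by edgeR). Genes of ESCRT, which sorts cargo into vesicles inside endosomes, and retromer, which returns cargo, gave 0 among 32, with a median of -0.070. Ptpn23 was at 30.0 ± 8.06 and 19.6 ± 7.77 CPM and Pdcd6ip, which encodes ALIX, at 354 ± 37.4 and 304 ± 11.6 CPM.

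The vacuolar ATPase, the proton pump that acidifies these organelles, gave 0 calls among 17 subunit genes, with a median of -0.14. Atp6v1a, the catalytic subunit, was at 334 ± 33.6 and 271 ± 9.06 CPM (adjusted p = 0.293 by edgeR). Atp6v1g2 was at 7.87 ± 5.25 and 3.56 ± 2.07 CPM, with overlapping groups. Among 49 lysosomal hydrolases and their activators 0 passed, 13 had a fold above 1 and the median was -0.11. Gm2a, the activator that presents ganglioside to hexosaminidase, was at 59.1 ± 15.2 and 33.8 ± 10.0 CPM (adjusted p = 0.132 by edgeR). Ppt2, a thioesterase gene, was at 14.0 ± 5.76 and 7.01 ± 2.61 CPM.

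Among 43 genes of the lysosomal membrane and of sorting to the lysosome 0 passed, with a median of -0.022. Igf2r, the receptor that carries mannose 6-phosphate-tagged hydrolases, was at 106, 136, 124 and 111 CPM in WT against 76.5, 70.6, 54.8 and 101 CPM in KO. The groups did not overlap, and the log2 fold change was -0.69 (SE 0.176, adjusted p = 0.0723 by edgeR). It was the 1 gene of the lists that DESeq2 called, and edgeR called it in 3 alternatives, including that without KO mouse 4, with adjusted p from 0.0216 to 0.235 over 17 alternatives. Gnptg, a subunit of the enzyme that starts that tag, was at 9.35 ± 1.04 and 17.8 ± 5.22 CPM (adjusted p = 0.317 by edgeR), with 49.5% of its exon bases shared with Unkl on the opposite strand.

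Relatives of Tfeb and the mTORC1 machinery that holds TFEB in the cytoplasm gave 0 calls among 30, with a median of 0.037. The related factor genes Tfe3 and Mitf had log2 fold changes of 0.22 (SE 0.273) and 0.27 (SE 0.300). Map4k3, a kinase that responds to amino acids, was at 55.2 ± 11.3 and 32.3 ± 12.1 CPM (edgeR adjusted p = 0.139, and called in 2 of 17 alternatives). Lamtor3, a subunit of the Ragulator complex on lysosomes, was at 24.5 ± 1.85 and 35.3 ± 7.24 CPM (adjusted p = 0.345 by edgeR).

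**Figure D4:**
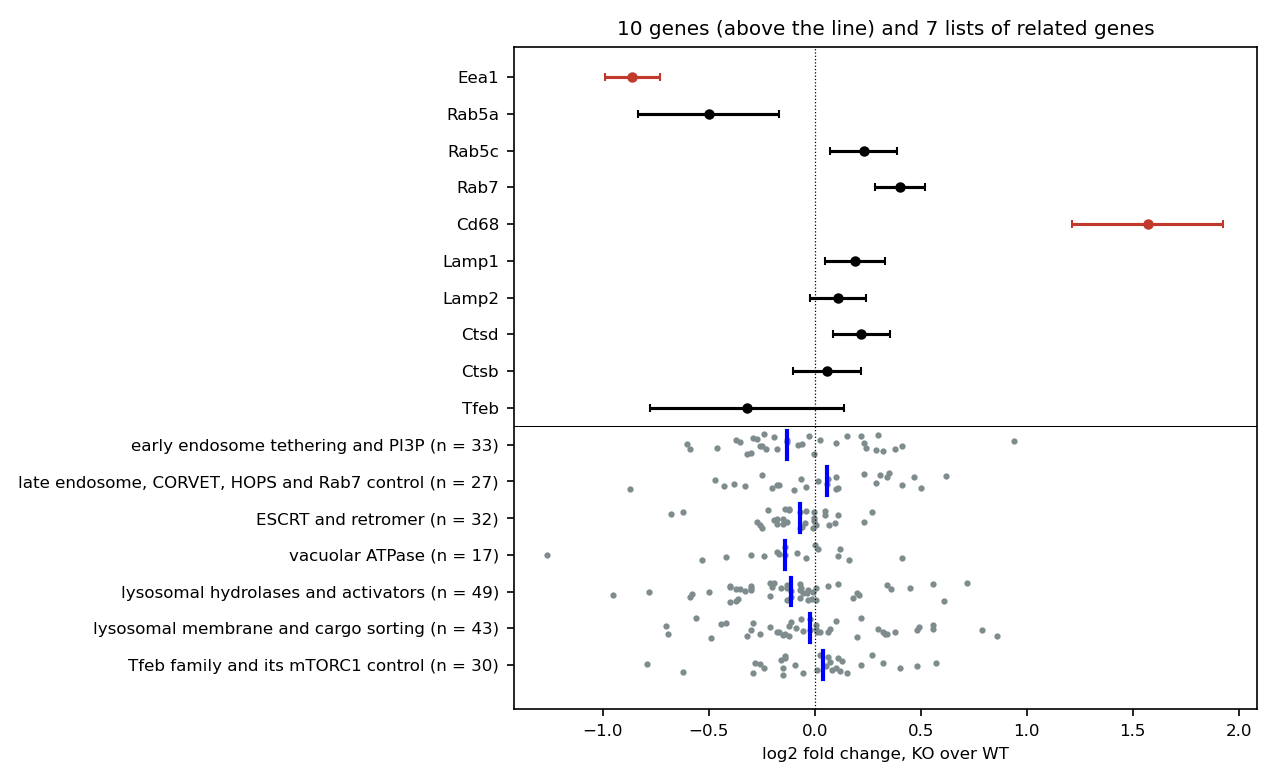
Log2 fold change of KO over WT (horizontal axis). Above the line are the 10 genes with their SE, Eea1 (-0.86) and Cd68 (1.57) in red; below it each grey point is 1 gene of the 7 lists, with the list's median in blue. The list medians lie between -0.14 and 0.059.

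The genes most like Eea1 and Cd68 were found by Pearson's r of log2(CPM + 0.5) over the 8 libraries, among 9589 genes with a mean of at least 5 CPM. These correlations contain the difference between genotypes. The genes were picked for a high r in the same libraries, which also favours a high r within genotypes. Both are therefore given as descriptions. For Eea1 they were Ints7, which encodes a subunit of the Integrator complex (r = 0.989), Atf7ip, a partner of a histone H3K9 methyltransferase (0.986), and Spop, a substrate adaptor of a ubiquitin ligase (0.983). After the mean of each genotype was taken off, r was 0.90, 0.76 and 0.82. For Cd68 they included H2-K1, an MHC class I gene (r = 0.976), and Parp10 (0.965), with 0.95 and 0.93 within genotypes.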

How the data were processed

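The authors deposited 1 table of raw counts of reads per gene symbol for each of 8 libraries. Per the labels' protocols, reads were mapped with STAR (2.4.0d-2) and counted with htseq-count (0.6.1galaxy1), and the build was mm10 per the submitters' processing notes. The sources used here do not give the annotation or the strand setting. Reads carry no molecular identifiers, so the counts are of reads and not of molecules. The SD and SE given here are over mice and include the variation between them.

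Fits used R 4.3.3 and edgeR 4.0.16. The filterByExpr function kept genes (minimum count 10, minimum total 15), library totals were scaled by TMM, and KO was compared with WT by the quasi-likelihood test with Benjamini-Hochberg adjustment over 11498 genes at 0.05. The test was two-sided. It was also run on counts simulated from its own fitted dispersions, which cannot check those dispersions. SE is the log2 fold change divided by the square root of F. The 10 genes and the lists were chosen with earlier results of these data known. From each list up to 4 genes past the threshold, otherwise the 2 with the smallest p, were named, besides the 10 genes, the Kdm4 targets and the 3 genes most like Eea1 and Cd68 (provisional symbols left out). Mrc1, the other markers named, Rab5b, Tfe3 and Mitf were chosen after their values were seen. Lengths and coordinates come from GENCODE M21, promoters from RefSeq (GRCm38.p6). Alternatives were other scaling, filters, DESeq2 1.42.0, limma 3.58.1 voom, a replicate block, thinned counts, removal of Rn45s and omission of each library. The CpG counts, the 50-base stretches and the split by E-box were added after the data were seen. The planned comparison of Rab proteins was not made. Some genes that the naming rule selects are not reported here.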

Additional observations from a re-analysis of the deposited data

How the results depend on the processing

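Over 17 alternatives the log2 fold change of Eea1 ran from -0.94 to -0.82, of Cd68 from 1.38 to 1.82 and of Rab7 from 0.34 to 0.52. Ctsb kept its sign in 15 of 17 and the other 9 genes in all 17. Calls on these genes are no sign of stability, since the contrast chose them. Of the 10 genes, 1 was called higher, and 0 to 1 with any 1 library left out. Over all genes, 29 were called higher and 38 lower, against 80 and 77 with DESeq2 and 109 and 90 with no filter. With 1 library left out the counts were 14 to 33 higher and 21 to 38 lower, the lowest without WT mouse 3. The count moved by over 1.5 times also without WT mouse 2 (18 higher), WT mouse 1 (23 lower), KO mouse 3 (25 lower) or KO mouse 4 (19 higher and 25 lower). In the 7 lists 1 gene was called lower with DESeq2, 1 with thinned counts and 3 with no filter, and 0 to 1 with any 1 library left out (1 without KO mouse 2 or 4). The causes were not tested. Per length, the longest transcript moved the WT median of 7 of the 10 genes by more than 1 SD.

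With the replicate number as a block, 0 of the 10 genes were called higher, 1 fewer than without it. Same-numbered mice did not deviate together (correlations -0.092 to -0.0089), and 0 of 4 WT mice correlated best with their own number, so the numbers were not taken as pairs. Low counts limit Tfeb and WT levels of Cd68, which had 7 and 9 counts in WT mouse 2.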

Other observations

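The E-box CACGTG was counted in the lists of endosome and lysosome genes. It was found in a promoter window of 42 of the 180 tested genes of the 7 lists that had one (23.3%), against 12.1% of all tested genes. The longer TCACGTGA was in 18 of the 180 (10.0%), against 2.27%. By list, CACGTG was in 4 of 12 vacuolar ATPase genes, 10 of 34 lysosomal membrane and sorting genes, 11 of 38 hydrolases and activators, 7 of 26 genes of the Tfeb list, 5 of 21 late endosome genes, 3 of 23 ESCRT and retromer genes and 2 of 26 early endosome genes. Differences between the lists were not tested. The 42 genes with the motif had a median log2 fold change of -0.11 (quartiles -0.28 and 0.11), and the 138 without it -0.068 (quartiles -0.21 and 0.16). These are descriptions of letters near annotated starts, with no test.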
